A study of Homo sapiens with 2 samples.

Results

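The type II keratin gene cluster of human chromosome 12 was examined in H3K27ac HiChIP data of HCT116, an established colorectal carcinoma cell line with an epithelial origin. A loop was an anchor joined to another anchor whose midpoint lay no more than 2 Mb away, and it belonged to the cluster when at least 1 end overlapped chr12:52550001-53400000 (hg19). The cluster had 103 of the 250223 anchors of the data. It had 911 of 1017526 loops in replicate 1 and 1087 of 1156897 in replicate 2, and 1736 of 1973472 loops when those of either replicate were counted. The limits were set by position and were not computed from a measured value, but the region was chosen with earlier results of these data known. The data comprised 2 replicates of 1 condition, untreated cells in standard culture, so that no condition was compared with another. Nothing in the labels states that the replicates came from separate cultures, so differences between them may be technical only. The p-values were computed from the counts of 1 replicate or from summed counts. They measure counting error and not the spread between replicates or cultures.

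In HiChIP, chromatin is cut, neighbouring ends are ligated and the ligated fragments are immunoprecipitated, here with an antibody against H3K27ac, an acetylation of histone H3 found at active promoters and enhancers. The value of a loop is its count, the number of read pairs that join its anchors. A high count can come from frequent contact and from strong acetylation of the anchors, and these cannot be told apart in these data. The tables summed to 1885481 counts in replicate 1 and 2131466 in replicate 2, same-anchor counts included. Most loops rested on a single read pair, with 82.2% and 79.6% of the loops of the cluster at a count of 1. Intervals are exact 95% intervals and cover counting error only. The sources used here do not state whether duplicates were removed, so read pairs may not all be independent molecules.

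Keratins build intermediate filaments from 1 type I and 1 type II protein. KRT8 and KRT18 are the pair of simple epithelia, such as the lining of the intestine, and KRT7 is the type II keratin of many ducts and glands. The other genes of the cluster serve the hair, the hair follicle, the epidermis, the mouth and the cornea. KRT18 is the type I gene that lies within the type II cluster, next to its partner KRT8. In hg19, KRT80 (chr12:52562780-52585798) and KRT7 (chr12:52627027-52642705) lie at the left end, and KRT8 (chr12:53290975-53298860, minus strand) and KRT18 (chr12:53342902-53346690, plus strand) lie at the right end. The cluster was therefore divided into a KRT7 and KRT80 end (chr12:52550001-52660000), the hair and epidermal keratin genes (chr12:52660001-53280000) and a KRT8 and KRT18 end (chr12:53280001-53360000). Flanks of 500 kb were taken on both sides of the cluster.

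The sequences below are shown because 2 results turn on where they lie. The highest count at the KRT8 and KRT18 end joined the usual promoter of KRT8 to an anchor that holds a second annotated KRT8 start, and the first sequence is the 250 bases before that start in RefSeq. It was placed at chr12:53320254-53320503 on the minus strand by an exact match to hg19, and its capitals mark the MboI site GATC, at which the chromatin was cut. The other sequences come from both anchors of a loop that spans the cluster from KRT80 to KRT78, without KRT8 and KRT18. They lie at chr12:52541182-52541306 and chr12:53268132-53268263 on the plus strand of hg19. Their capitals mark TGAGTCA on either strand, the letters that AP-1 factors bind.
KRT8 second start: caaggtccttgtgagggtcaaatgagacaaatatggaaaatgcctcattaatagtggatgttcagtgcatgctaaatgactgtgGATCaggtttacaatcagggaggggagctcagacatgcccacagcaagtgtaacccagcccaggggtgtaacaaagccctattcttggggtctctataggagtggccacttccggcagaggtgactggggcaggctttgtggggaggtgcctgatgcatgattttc
Left edge: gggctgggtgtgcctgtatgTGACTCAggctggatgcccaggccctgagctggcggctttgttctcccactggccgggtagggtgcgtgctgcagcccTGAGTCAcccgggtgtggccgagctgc
Right edge: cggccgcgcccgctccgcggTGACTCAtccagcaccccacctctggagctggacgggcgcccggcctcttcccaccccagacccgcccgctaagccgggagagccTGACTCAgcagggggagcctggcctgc

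Loops with high counts made up a larger share at both ends of the cluster than among the hair and epidermal keratin genes. Of the 1736 loops, 62 (3.57%) had a summed count of 5 or more, compared with 1.47% of all loops of the genome. Of these 62, 60 were found in both replicates. The 62 were picked by the sum of both replicates, which favours loops found in both. How many such loops of the whole genome were found in both was not computed. The share with 5 or more was 5.56% (16 of 288 loops, interval 3.21 to 8.87%) at the KRT8 and KRT18 end and 5.17% (18 of 348, interval 3.09 to 8.05%) at the KRT7 and KRT80 end. It was 2.19% (28 of 1276, interval 1.46 to 3.16%) among the hair and epidermal keratin genes, 2.49% in the left flank and 2.15% in the right flank. In the 40 kb between the KRT8 and KRT18 end and the right flank it was 5.88% (9 of 153, interval 2.72 to 10.9%). By number, the hair and epidermal region, the longest part of the cluster, had the most such loops. Loops of 1 region share anchors, so these intervals treat as independent what may not be.

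**Figure D1:**
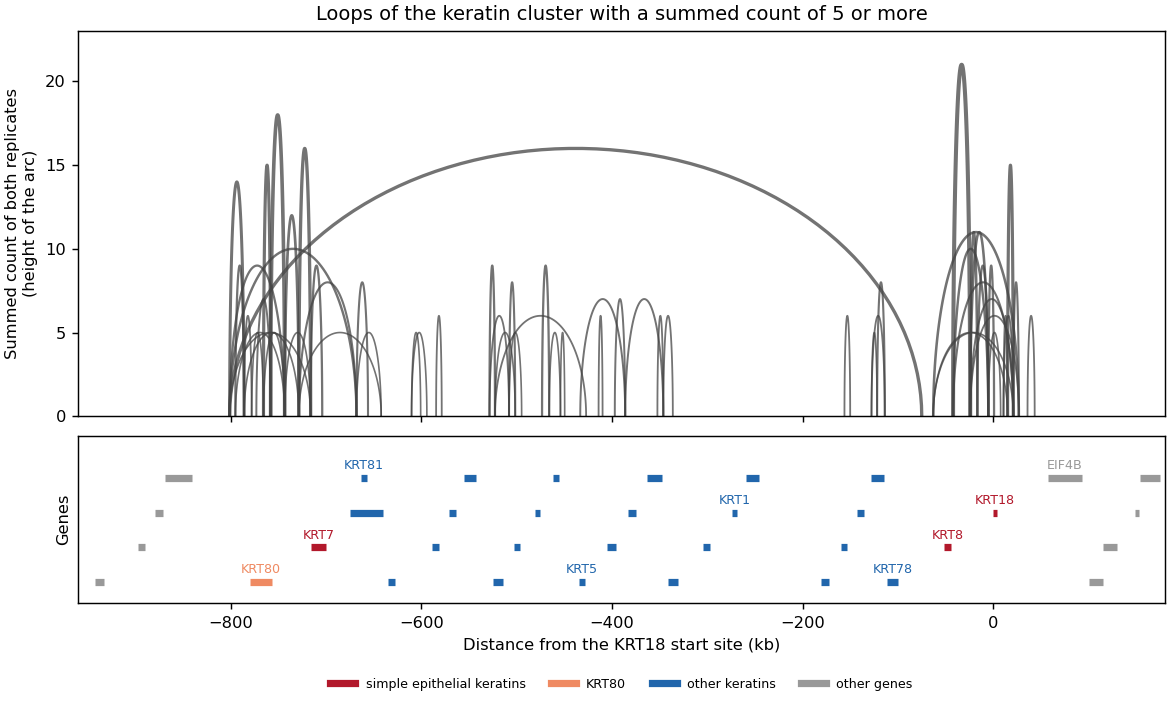
Each arc joins the midpoints of the anchors of 1 of the 62 loops with a summed count of 5 or more, its height is the summed count of both replicates, and the lower panel shows the protein-coding genes by distance from the KRT18 start site in kb. Short arcs of up to 21 counts stand at the KRT7 and KRT80 end and at the KRT8 and KRT18 end. A single arc of 16 counts spans the genes from KRT80 to KRT78 and ends before KRT8.

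The KRT8 and KRT18 end was dense in loop ends. It had 4.00 loop-end counts per kb in replicate 1 and 4.64 in replicate 2 (4.32 ± 0.451, SD, n = 2). The hair and epidermal keratin genes had 1.90 and 2.43, the left flank 1.79 and 2.21, and the right flank 1.89 and 2.22. The KRT7 and KRT80 end lay between, with 3.20 and 3.85, and the 40 kb just right of the KRT8 and KRT18 end differed most between replicates, with 2.85 and 4.72. Per anchor, the KRT7 and KRT80 end was higher, with 35.2 and 42.4 counts compared with 32.0 and 37.1 at the KRT8 and KRT18 end. The values of both replicates at the KRT8 and KRT18 end were therefore above those of both replicates in the hair and epidermal region and in the flanks.

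To ask whether these differences exceed counting error, the counts of each loop were summed once per region. Loops that join both regions compared were left out. The KRT8 and KRT18 end had 201 counts and the hair and epidermal keratin genes 744 in replicate 1, a density ratio of 2.09 (interval 1.78 to 2.45, exact two-sided binomial p = 5.07e-18). Replicate 2 gave 239 and 945 counts and a ratio of 1.96 (1.69 to 2.26, exact p = 3.89e-18), and the mean was 2.03 ± 0.0945 (SD, n = 2). Against the flanks, the ratio was 2.04 in each replicate (1.73 to 2.38, exact p = 1.61e-16, and 1.76 to 2.34, exact p = 7e-20). The hair and epidermal keratin genes themselves had 0.965 (0.871 to 1.07, exact p = 0.49) and 1.01 (0.922 to 1.11, exact p = 0.818) times the density of the flanks, so that no difference from the flanks was found. The left flank includes the 10 kb just left of the cluster, with 21.3 and 22.8 loop-end counts per kb. The medians of bins of 10 kb were 1.35 and 1.45 in the left flank, 1.65 and 1.80 in the right flank and 1.60 and 2.25 among the hair and epidermal genes. A ratio without this bin was not computed. The direction of the ratio of the hair and epidermal genes to the flanks depended on the setting. Per kb of anchors it was 0.828 and passed the exact test in both replicates (p = 3.37e-05 and 0.000277), and against the right flank alone it was 1.17 and passed in both as well (exact p = 0.0329 and 0.000184). With a minimum count of 2, the KRT8 and KRT18 end had 3.6 times the density of the hair and epidermal genes and 3.68 times that of the flanks.

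The KRT8 and KRT18 end also stood high against the genome, given here as a description. Of 28906 autosomal tiles of 80 kb that hold an anchor, 99.6% in each replicate had fewer counts per kb. The hair and epidermal region was itself above 95.4% and 96.8% of 4015 tiles of 620 kb, and the KRT7 and KRT80 end above 99.1% and 99.2% of 21273 tiles of 110 kb. Anchors covered 43.7% of the bases of the KRT8 and KRT18 end, 41.7% of the hair and epidermal region and about 35% of the flanks (34.7% and 35.2%). Same-anchor counts were left out of all densities above. They were likewise higher at the KRT8 and KRT18 end, at 0.912 and 0.800 per kb compared with 0.232 and 0.260 among the hair and epidermal genes.

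**Figure D2:**
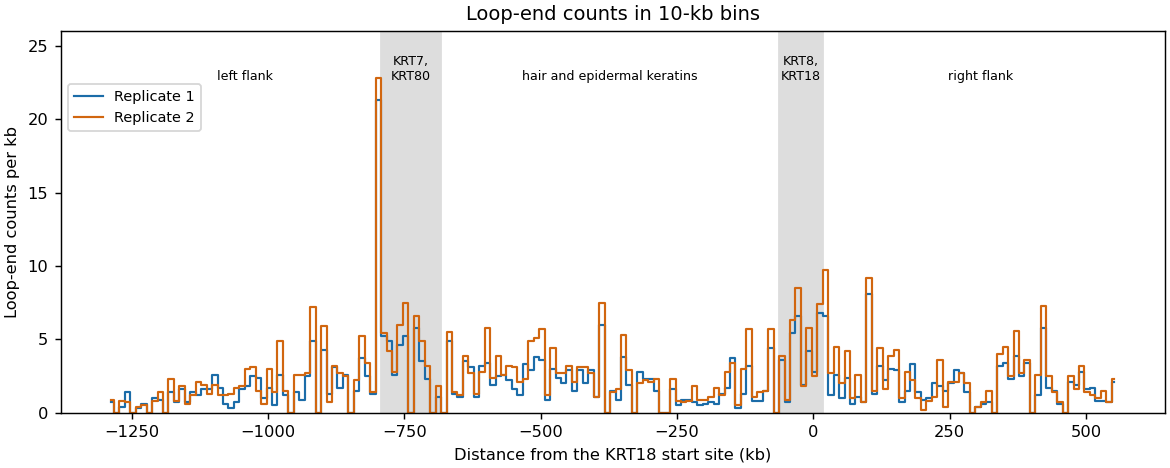
Loop-end counts per kb in bins of 10 kb are plotted by distance from the KRT18 start site in kb, with 1 line for each replicate and both ends of the cluster shaded. The bins of the KRT8 and KRT18 end reached 6.8 and 8.5 counts per kb, with medians of 3.9 and 4.85. Single bins reached 8.1 and 9.2 in the right flank and 6 and 7.5 among the hair and epidermal genes. The bin just left of the cluster stood out with 21.3 and 22.8.

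Within the KRT8 and KRT18 end, the counts were spread over 10 anchors, and those with KRT8 starts and the one before KRT18 held most of them. KRT8 has 10 protein-coding transcripts in the annotation. Of these, 3 start in the anchor at chr12:53298481-53303333, here called the KRT8 promoter anchor, 1 starts at 53320253 in the anchor at chr12:53315510-53322249, and 5 start between 53343560 and 53343666, in the anchor that also holds the KRT18 start. The last lies in no anchor. The KRT8 promoter anchor had 54 and 63 counts in replicates 1 and 2, the anchor of the second KRT8 start 66 and 85, the anchor just before KRT18 (chr12:53335061-53340687) 42 and 58, and the anchor of the KRT18 start (chr12:53342496-53345348) 28 and 25. The anchor of the second KRT8 start and the one before KRT18 lie outside the canonical transcripts but within longer KRT8 transcripts, of which 4 protein-coding ones span each anchor.

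The strongest loop of the KRT8 and KRT18 end, and of the whole cluster, joined the KRT8 promoter anchor to the anchor of the second KRT8 start at 18 kb. It had 9 counts in replicate 1 and 12 in replicate 2, which was 23.6 and 27.1 times the count expected from distance alone (intervals 10.8 to 44.7 and 14 to 47.3). An exact one-sided Poisson test, adjusted by Benjamini-Hochberg over every anchor pair of the genome, called it in both (adjusted p = 3.02e-05 and 1.11e-08). When the depth of both anchors was taken into account as well, the count was 1.59 and 1.83 times the expected one, and the intervals, 0.728 to 3.02 and 0.944 to 3.19, included 1.

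The loops that link KRT8 to the KRT18 side were weaker. The KRT8 promoter anchor had 4 and 6 counts with the anchor just before KRT18, at 37 kb, and 1 and 2 counts with the anchor of the KRT18 start, at 43 kb. The first of these was 2.56 and 2.95 times the count expected from distance and depth (0.698 to 6.56 and 1.08 to 6.41), and the second 1.06 and 2.75 times (0.0269 to 5.93 and 0.333 to 9.93). For the anchor of the KRT18 start, a contact with the KRT8 promoter anchor above expectation was not detectable at this depth. For the anchor just before KRT18, the interval of replicate 2 excluded 1 and that of replicate 1 did not, and the summed count was 2.78 times the expectation (1.33 to 5.10). Over distance alone this loop passed the exact Poisson test in replicate 2 (adjusted p = 0.299 and 0.00204), and with depth the adjusted p was 1. The anchor before KRT18 also had 5 and 4 counts with the anchor of the KRT18 start, at 6.05 kb, and 5 and 6 with the anchor of the second KRT8 start, at 19 kb.

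Other loops of this end reached beyond KRT18. The KRT8 promoter anchor had 5 and 3 counts with an intergenic anchor at chr12:53360897-53367266, at 63.2 kb, and the anchor of the second KRT8 start had 2 and 5 with the same anchor. That anchor also had the second highest count of this end, 6 and 9, with its neighbour at chr12:53355903-53360373. The longest of the 10 strongest loops enclosed KRT8 and KRT18 together. It joined chr12:53278466-53281722, which holds the pseudogene RPL7P41, to the intergenic anchor at chr12:53368065-53371776, at 89.8 kb, with 5 and 6 counts. These were 64.2 and 66.2 times the distance expectation (adjusted p = 0.00129 and 4.46e-05 in the exact Poisson test over all pairs) and 19.5 and 16.1 times the distance and depth expectation (intervals 6.33 to 45.5 and 5.91 to 35), with adjusted p = 0.943 and 0.582 in the single replicates and 0.000279 for the summed counts.

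Across all anchor pairs of the cluster, 8 of 43837 (0.0182%) passed the distance test in replicate 1 and 14 (0.0319%) in replicate 2, compared with 0.0026% and 0.00357% of all pairs of the genome. Loops of the KRT8 and KRT18 end made up 5 of the 8 and 4 of the 14, loops of the KRT7 and KRT80 end 1 and 7, and loops of the hair and epidermal region 2 and 5. In the summed counts 32 pairs (0.073%) passed, compared with 0.0104%, of which 13 touched the KRT8 and KRT18 end, 12 the KRT7 and KRT80 end and 13 the hair and epidermal region. A loop between regions counts for each of them. The KRT8 and KRT18 end and the KRT7 and KRT80 end have 10 anchors each, and the hair and epidermal region has 77. The pairs tested were not counted by region, so no share stands beside these numbers. With depth in the expectation, 0 pairs passed in either replicate, where 7.83e-06% and 2.15e-05% of all pairs did. At an unadjusted p under 0.05 in this Poisson test there were 380 (0.867%) and 402 (0.917%), compared with 0.978% and 1.05% of all pairs. In the summed counts 2 pairs passed (0.00456%, compared with 7.83e-05%). Those 2 were the loop that encloses KRT8 and KRT18 and the spanning loop, which reaches from left of KRT80 to between KRT78 and KRT8. When the count of the pair itself was kept in the depth of its anchors, the spanning loop passed in the summed counts (exact Poisson test, adjusted p = 4.24e-08) and the enclosing loop did not (adjusted p = 0.0139).

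The spanning loop joined chr12:52538380-52544807, an intergenic anchor just left of the cluster, to chr12:53265989-53270089, an intergenic anchor between KRT78 and KRT8, at 726 kb. It encloses the keratin genes from KRT80 to KRT78 and leaves out KRT8 and KRT18. It had 8 counts in each replicate. These were 725 and 626 times the distance expectation (313 to 1428 and 270.1 to 1233, exact Poisson test, adjusted p = 2.88e-15 and 5.88e-15) and 25 and 22.4 times the distance and depth expectation (10.8 to 49.2 and 9.67 to 44.1), with adjusted p = 0.015 and 0.0148 in the single replicates and 6.83e-10 for the summed counts. Its summed count of 16 was the highest of the 498723 loops of 500 kb or more in the genome, of which the next had 14. The right anchor had 44 and 57 counts in all, and the 3 anchors at the left edge received 12 of them in each replicate (27.3% and 21.1%). The neighbouring left anchors, chr12:52545345-52549882 and chr12:52554833-52558693, had 2 counts each in each replicate.

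**Figure D3:**
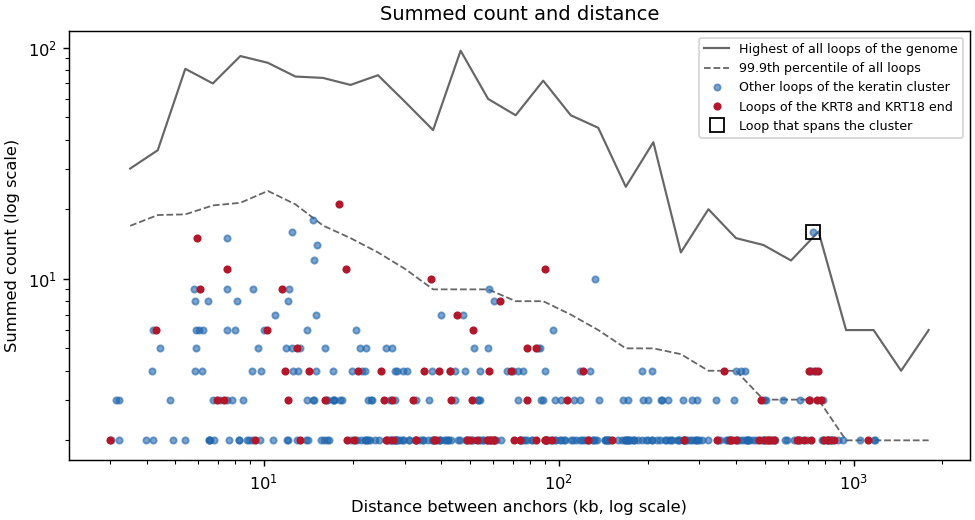
The summed count of each cluster loop with 2 or more counts is plotted against the distance between its anchors in kb, both on log scales, beside the highest count and the 99.9th percentile of all loops of the genome by distance. The loop that spans the cluster from KRT80 to KRT78, with 16 counts at 726 kb, reaches the line of the highest count. The strongest loop of the KRT8 and KRT18 end, with 21 counts at 18 kb, lies below that line.

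The left edge anchor was itself the busiest of the anchors named, with 153 and 155 counts. The sequences printed above show that this anchor and the right anchor each hold 2 matches to TGAGTCA on either strand, 78 bases apart in the left anchor and 85 in the right. Of 13742 anchors of chromosome 12, 39.6% held a match and 1.46% held 2 within 100 bases, and among the 2465 anchors of 4 to 7 kb these shares were 56.5% and 2.52%. At the KRT8 and KRT18 end, 7 of 10 anchors held TGAGTCA, among them the KRT8 promoter anchor with 1 match and the anchors of the second KRT8 start, before KRT18 and of the KRT18 start with 2 each. The core of the CTCF motif, searched on both strands, had no match in either anchor of the spanning loop or in the 10 anchors of the KRT8 and KRT18 end and 1 match at the left edge, in the anchor at 52554833, with 1.14% of the anchors of the chromosome holding it. These matches describe letters only. The 250 bases before the second KRT8 start and the 50 after it held no TATA box (TATAAA), no GC box (GGGCGG) and no AP-1 site in its looser form (TGANTCA) on either strand. These occurred in 11.5%, 45% and 7.71% of 35116 RefSeq promoters of the same length.

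Contacts of the KRT8 and KRT18 end with the rest of the cluster were uneven. With the KRT7 and KRT80 end, at the far side of the cluster, it had 13 and 18 counts, 2.38 and 2.79 times the distance and depth expectation (intervals 1.27 to 4.08 and 1.65 to 4.41). With the hair and epidermal keratin genes between them it had 51 and 47 counts, 0.757 and 0.565 times the expectation (0.563 to 0.995 and 0.415 to 0.751). Over distance alone, the contacts with the hair and epidermal genes were above the expectation, at 1.99 and 1.57 times (1.48 to 2.61 and 1.16 to 2.09), so the direction depends on whether depth is taken into account. With depth, the first ratio over the second was 3.15 in replicate 1 (interval 1.57 to 5.88) and 4.93 in replicate 2 (2.7 to 8.65), a comparison that was chosen after the values were seen. Contacts with the 3 anchors at the left edge were 15 and 11, 4.44 and 3.2 times the expectation (2.49 to 7.33 and 1.6 to 5.72), and of these the KRT8 promoter anchor had 4 in each replicate. Among these 3, the anchor at 52554833 also belongs to the KRT7 and KRT80 end. With the left flank as a whole, outside the keratin genes, there were 34 and 25 counts. These were likewise above the distance and depth expectation, at 2.92 and 1.83 times (2.02 to 4.08 and 1.18 to 2.69).

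On the other side, the KRT8 and KRT18 end had 0.612 and 0.545 times the expected contacts with the right flank (0.422 to 0.86 and 0.378 to 0.762), and 1.39 and 1.64 times with the 40 kb between KRT18 and that flank (1 to 1.89 and 1.28 to 2.08). Over distance alone, the contacts with the right flank were 1.41 and 1.24 times the expectation (0.969 to 1.98 and 0.861 to 1.74). To ask whether its contacts favoured a side, counts at 20 to 500 kb were set against the distance expectation. The right flank had 30 and 33 counts and the hair and epidermal genes 33 and 31, a ratio of 0.911 in replicate 1 (interval 0.537 to 1.54, exact two-sided binomial p = 0.801) and 1.07 in replicate 2 (0.633 to 1.8, exact p = 0.804). No preference for a side was found, and ratios below 0.537 or above 1.8 lay outside both intervals. At 20 to 200 kb the ratio was 0.935 in replicate 1 (exact p = 0.874) and 2.76 in replicate 2 (exact p = 0.0637), where it rested on 14 and 5 counts. It was 1.36 and 2.13 when the 40 kb next to KRT18 was added to the flank side (exact p = 0.168 and 0.000218), a choice made after the values were seen.

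With depth in the expectation, low values on both sides were also seen when the counts that cross a position, between the 200 kb to its left and the 200 kb to its right, were set against the distance and depth expectation. This profile was added after the other values had been seen. The ratio fell to 0.439 and 0.321 at 53260000, between KRT78 and KRT8, and 0.216% of 6026 positions of chromosome 12 had a lower mean of the replicates. On the right it was 0.489 and 0.446 at 53420000, within EIF4B, a translation initiation factor gene, with 1.31% of positions lower. At 53320000, between KRT8 and KRT18, it was 1.01 and 0.996, close to the chromosome's median of 0.981. The low points on either side of KRT8 and KRT18 were 160 kb apart in replicate 1 and 140 kb in replicate 2, in which the left one was at 53280000, with 0.295.

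**Figure D4:**
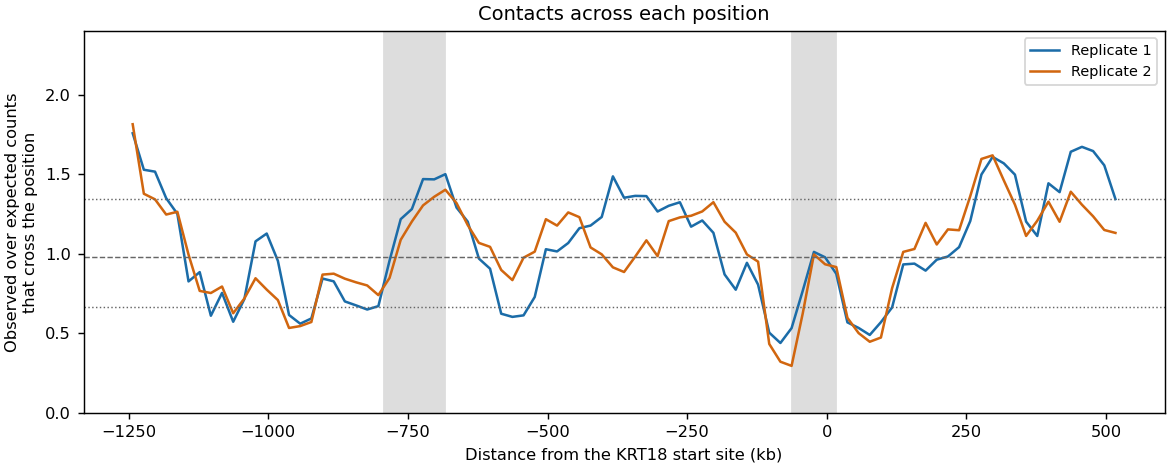
Observed over expected counts that cross each position are plotted by distance from the KRT18 start site in kb, with 1 line for each replicate, both ends of the cluster shaded, and dashed and dotted lines at the median and the 10th and 90th percentiles of chromosome 12. The lines of both replicates dip below 0.5 on each side of the KRT8 and KRT18 end and rise to about 1 within it.

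The promoters of the 27 keratin genes of the list were then compared, a promoter being 2.5 kb on each side of the canonical start. KRT71 and KRT18 had the highest values. The promoter anchors of KRT18, which included the anchor just before the gene, had 65 and 79 counts (intervals 50.2 to 82.8 in replicate 1), and those of KRT8 had 54 and 63 (40.6 to 70.5). KRT7 had 35 and 49. Of the 27 genes, 23 had a promoter anchor and 15 had at least 1 loop of 5 or more summed counts, all 3 simple epithelial keratins among them. The share of all protein-coding genes with such a loop was not computed, so these numbers are a description. Promoter anchors of the 3 simple epithelial keratins took 26.5% and 26.1% (26.3 ± 0.283%, SD, n = 2) of the counts of all keratin promoters. Of 1031 protein-coding genes of chromosome 12, 98.8% and 98.6% had fewer promoter counts than KRT8, 99.4% in each replicate fewer than KRT18, and 94.1% and 96.8% fewer than KRT7. For KRT80 these shares were 98.0% and 98.4% and for KRT5 97.5% and 97.3%, both above those of KRT7. The rank of KRT18 rests on 2 anchors. The one before the gene, within longer KRT8 transcripts, had 42 and 58 counts. The one with the KRT18 start had 28 and 25, and the 90th percentile of these protein-coding genes was 29 and 36.

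KRT80, a keratin of several epithelia, had 46 and 60. Its promoter anchor, chr12:52579569-52589748, had 8 and 10 counts with chr12:52594513-52604250 at 14.7 kb, and this loop passed the distance test in both replicates (adjusted p = 0.00135 and 1.53e-05 in the exact Poisson test over all pairs). The KRT7 promoter anchor, chr12:52623049-52630202, had 6 and 10 counts with chr12:52608334-52620105 at 12.4 kb, which passed in replicate 2 alone (exact Poisson test, adjusted p = 0.246 and 4.86e-05). Of the counts of the KRT7 promoter anchor, 14 and 26 went to the KRT7 and KRT80 end itself and 1 in each replicate to the KRT8 and KRT18 end. The KRT80 promoter anchor had 27 and 30 within its own end, among them 9 and 6 with chr12:52575539-52578731 inside the gene. The other loops among the 5 of this end with the highest summed counts joined the left edge anchor to the anchor at 52554833 (6 and 8 counts) and the partner anchors of the KRT80 and KRT7 promoters to each other (5 and 7).

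Of the loops of the hair and epidermal region, the spanning loop and the next 4 by summed count, with the shorter one first at equal counts, are described. The left edge anchor had 3 and 7 counts with chr12:52672497-52676956, within KRT86, at 133 kb, which passed the distance test in replicate 2 alone (exact Poisson test, adjusted p = 0.316 and 9.78e-08). The other 3 had 5 and 4 counts between chr12:52812940-52815723 and an anchor overlapping KRT75, 4 and 5 from the KRT6C promoter to its neighbour, and 3 and 5 from chr12:52832785-52836917 to an anchor overlapping KRT6B. None of these 3 passed the distance test in a single replicate.

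Promoters of hair and epidermal keratins ranged from 0 to 68 counts in replicate 1 and from 0 to 82 in replicate 2. Among the 5 keratins of the hair follicle sheath, KRT71 had 68 and 82 and KRT74 had 60 and 75, and these 2 genes shared a promoter anchor of 18.8 kb. Per kb of anchor, KRT74 had 3.19 and 3.99 counts and KRT71 3.39 and 4.09, whereas KRT8 had 11.1 and 13 and KRT18 7.67 and 9.32, so the order depends on whether the width of the anchors is taken into account. KRT72 had 23 and 34 counts, and KRT73 and KRT75 had no promoter anchor. Among the 6 hair keratins, KRT85 had the most, 43 and 58, and KRT86 had no promoter anchor.

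By counts, the keratins of basal and activated epidermis were intermediate. KRT5, the type II keratin of basal cells, had 41 and 51, KRT6B 36 and 55, KRT6A 20 and 27 and KRT6C 16 and 27. All 4 genes had a loop of 5 or more summed counts, compared with 15 of all 27 keratin genes, and the share of all protein-coding genes was not computed. The keratins of differentiated epidermis had the lowest median count, 6.5, and none of the 3 genes had such a loop. KRT2 had 11 in each replicate, KRT77 had 5 and 8, and KRT1, the suprabasal keratin of the skin, had no promoter anchor. Per kb of anchor, the 4 basal and activated genes had 2.39 to 4.33 counts in replicate 1 and 4.03 to 6.05 in replicate 2. KRT2 had 5.88 in each replicate and KRT77 2.53 and 4.05, so this order also depends on the width of the anchors. In the oral, corneal and other group, KRT3 of the cornea had 31 and 35 and KRT4 of the oral mucosa 3 and 5. A gene without a promoter anchor has no count by construction, which limits counts at anchors and not contacts of the gene.

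**Figure D5:**
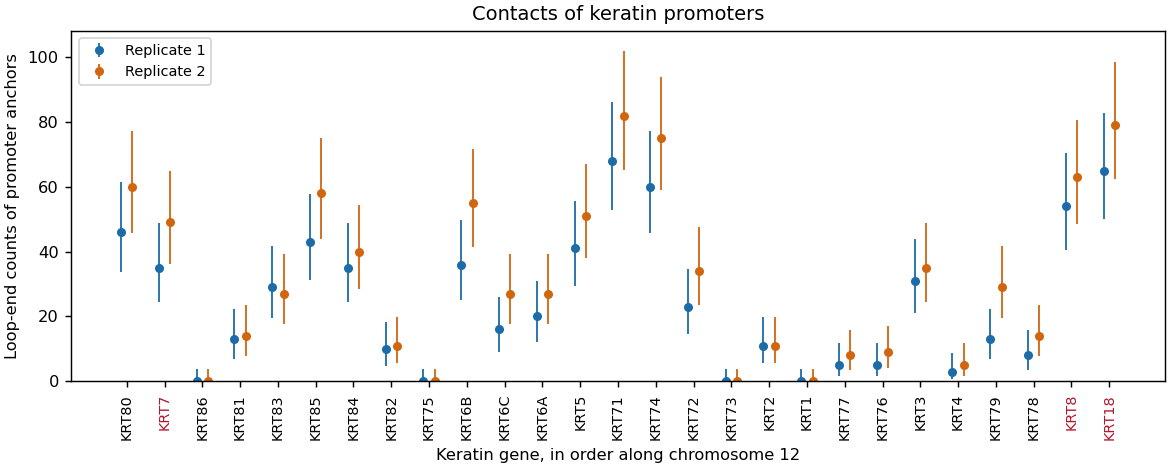
Loop-end counts of the promoter anchors of the 27 keratin genes are plotted in their order along the chromosome, with 1 point for each replicate, exact 95% Poisson intervals as bars and the simple epithelial keratins in red. KRT8 and KRT18 at the right end have 54 to 79 counts, KRT71 and KRT74 with their shared anchor 60 to 82, and 4 genes without a promoter anchor are at 0.

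Several keratin genes are near copies of one another, and read pairs from them can be lost or misplaced in the mapping. Of all 50-base stretches of the gene, 50.9% of KRT81, 38.2% of KRT6C, 31.8% of KRT6B, 21.8% of KRT6A and 16.6% of KRT86 occurred again in the cluster or its flanks, so their counts are uncertain. For KRT8 this was 0.498%, for KRT7 0.064% and for KRT18 0%.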

How the data were processed

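The authors cut chromatin of HCT116 cells with MboI and deposited, for each replicate, raw counts of read pairs that join anchors, without normalization. HiC-Pro and hg19 are named in the submitters' processing notes and hichipper in the methods. Their versions are not given in the sources used here. All 13742 anchors of chromosome 12 started and ended at GATC, so positions were read as counted from 1. Genes came from GENCODE release 44 on hg19 and promoter sequences from RefSeq (GRCh38.p14), which held 14 of the 27 keratin genes. It had no entry for KRT18 or KRT7. The sequences at the edges of the cluster were read from hg19.

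Expected counts were computed in each replicate over 51094602 anchor pairs from 60 distance classes, with anchor weights balanced in 20 rounds for depth. A pair's own count was left out of its anchors' depth (offset 0.5), but not in sums over regions. Calls used an adjusted p under 0.01. Regions were compared by exact binomial tests. The expectation, the calls and the ratio test were tested on simulated data. The region, gene lists and tests were chosen with earlier results of these data known. Alternatives were the distance limit, minimum count, weight, scaling, flanks, promoter width and each replicate left out. Named loops were the 10 with the highest summed count at the KRT8 and KRT18 end, 5 in the hair and epidermal region, 5 at the KRT7 and KRT80 end, and all between the KRT8 and KRT18 promoters. Scripts ran in Python 3.11.15 (scipy 1.17.1, numba 0.67.0, pandas 2.3.3, numpy 2.4.6, matplotlib 3.10.9).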

Additional observations from a re-analysis of the deposited data

Results flagged for a closer look

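Counts that join an anchor with itself took no part in the loops. At the KRT8 and KRT18 end they summed to 73 in replicate 1 and 64 in replicate 2, which was 2.93 (interval 2.24 to 3.8) and 2.6 (1.95 to 3.41) times the density of the flanks (exact two-sided binomial p = 1.24e-13 and 4.76e-10). They were picked out because they carry a signal above the flanks in data that the loops do not use. Their part in the loop densities was not tested.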

How the results depend on the processing

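The alternatives numbered 69, and 43 of them left the direction and the call, or the size of the count, as they were. Not all of these are separate checks. A flank of 850 kb could not change the comparison of the flank side with the keratin side, whose contacts were limited to 500 kb. Leaving out a replicate restates the value of the other. The KRT8 and KRT18 end stayed denser than the hair and epidermal genes and the flanks under every alternative run, with exact p under 0.05 in both replicates. Leaving out the anchor at the border, an alternative added after the data were seen, gave 1.8 and 1.83.

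The ratio of the hair and epidermal genes to the flanks, 0.987 over both replicates, crossed 1 easily. It was 1.02 with each loop at the same weight, 1.07 for loops of 20 kb or more, 1.01 up to 1 Mb, 1.11 with flanks of 850 kb, 1.04 with the left flank and 1.17 with the right flank, and 0.965 to 1.01 without a replicate. It passed the exact test in both replicates per kb of anchors, at 0.828 (p = 3.37e-05 and 0.000277), and, in the other direction, with the right flank (p = 0.0329 and 0.000184). The flank-side ratio, 0.989, was 1.1 with depth, 1.85 at 20 to 200 kb (0.935 and 2.76 in the replicates), 1.03 at 50 to 500 kb, 1.14 with each loop at the same weight, 0.911 to 1.07 without a replicate, and 1.75 with the 40 kb next to KRT18, an alternative added after the data were seen (1.36 and 2.13, exact p = 0.168 and 0.000218).

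The loops numbered 999 on average and 192 at a minimum count of 2. Loops of 5 or more were 62 in the summed counts, 11 with 5 in each replicate and 16 to 29 without a replicate. Calls over distance averaged 11, with 18 at an adjusted p under 0.05, 32 in the summed counts and 8 to 14 without a replicate. With depth there were 0, and 1 at 0.05, 1 up to 1 Mb and 2 in the summed counts. The share of the simple epithelial promoters, 26.3%, was 25.4% at 1 kb on each side, 21.1% at 5 kb, 32.1% at a minimum count of 2 and 26.1 to 26.5% without a replicate. No paired analysis was possible because the data hold a single group. Counts of 1 to 3 limit most single loops.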

Other observations

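Beyond 2 Mb, anchors of the cluster had 327 and 336 counts in 662 anchor pairs, and the highest summed count was 2.

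The anchor of the second KRT8 start had 27 and 35 of its 66 and 85 counts within the KRT8 and KRT18 end, compared with 18 and 31 of 54 and 63 for the KRT8 promoter anchor and 13 and 12 of 28 and 25 for the anchor of the KRT18 start. The anchor at the right edge of the spanning loop had 9 and 2 counts with the KRT8 and KRT18 end and 14 and 28 with the hair and epidermal keratin genes.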
